A study of Mus musculus with 8 samples.

Results

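The guanylate-binding proteins (GBP) and the immunity-related GTPases (IRG) are families of GTP-hydrolysing proteins that mouse cells make in response to interferon-γ. The 10 genes described here, measured in whole aortas of mice on a Western diet, were Gbp2, Gbp3, Gbp5, Gbp6 and Gbp7 of the GBP family, and Iigp1, Irgm1, Irgm2, Igtp and Tgtp1 of the IRG family. They were chosen by name in the deposited gene table, where each of the 10 names stood on 1 assembled locus. Irgm2 and Igtp stood on the same locus, so the 10 genes had 9 loci of 48607 in all.

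RNA-seq of poly(A) RNA was performed on whole aortas from ApoE-/- mice, which lack apolipoprotein E and develop atherosclerosis, and from NPRC-/-ApoE-/- littermates, which also lack natriuretic peptide receptor C (NPRC, encoded by Npr3) in every tissue through a frameshift made by CRISPR. All mice were fed Western diet, for 12 weeks per the methods of the study, and the labels give no age. The study names 5 aortas per group. In the 8 libraries analysed here, titles gave 5 libraries as ApoE-/- (ApoE-/- 1 to 5) and 3 as NPRC-/-ApoE-/- (NPRC-/-ApoE-/- 1 to 3). The genotype entry contradicted the title for 4 of them. Libraries ApoE-/- 4 and 5 were entered as Nprc-/-Apoe-/-, and libraries NPRC-/-ApoE-/- 1 and 2 were entered as Apoe-/-. The groups below are those of the title, and the edgeR comparison of the GTPases was repeated by genotype entry. Only 3 ApoE-/- libraries and 1 NPRC-/-ApoE-/- library carried the same genotype in both labels.

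Library totals ranged from 62969165 to 86693276 counts, and Npr3 did not separate the groups. The Npr3 level was 0.62 to 1.69 FPKM (fragment counts scaled to transcript length and library size) under the title ApoE-/-, against 1.13 to 1.39 FPKM under the title NPRC-/-ApoE-/-, a log2 fold change of 0.10 ± 0.28 (SE; adjusted p = 0.901, edgeR). A read count does not show the reading frame, so Npr3 could not decide which of the labels was right. As defining markers of the tissue, the 8 smooth muscle genes together held between 5843 and 14063 CPM (counts scaled to library size) and the 8 endothelial genes between 1266 and 1502 CPM, and no marker of these lists was at 0 in all libraries.

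Interferon-γ, made mainly by T cells and natural killer cells, binds a receptor of IFNGR1 and IFNGR2 chains, which signals through the kinases JAK1 and JAK2. Promoters of its target genes hold gamma-activated sites, and IRF1, itself made in response to interferon-γ, binds interferon-stimulated response elements, through which type I interferons act as well. The proteins of both families gather on the vacuoles of intracellular pathogens, where effector IRG proteins break the vacuole membrane, regulatory IRGM proteins protect the membranes of the cell itself, and GBPs help to open the way to inflammasomes. In atherosclerotic arteries, interferon-γ acts on macrophages, endothelial cells and smooth muscle cells.

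The elements named above were looked for in promoter windows from RefSeq (build GRCm38.p6), which reach from 250 bases before to 50 bases after a start site. Windows were given for 8 of the 10 genes, 9 windows in all, since Gbp3 had 2. Gbp6 and Iigp1 had none. The stretches with matches are shown because interferon response is what the 2 families share, with matches in capitals and 15 further bases on each side where the window allowed. Each is written 5′ to 3′ on the strand of its gene.
Gbp2 (chr3:142620589-142620628, plus strand): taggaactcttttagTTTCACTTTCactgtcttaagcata
Gbp3 (chr3:142559984-142560029, plus strand): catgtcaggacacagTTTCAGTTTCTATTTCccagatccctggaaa
Gbp7 (chr3:142530215-142530307, plus strand): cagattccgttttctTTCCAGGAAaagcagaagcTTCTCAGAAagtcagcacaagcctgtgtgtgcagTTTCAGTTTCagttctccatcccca
Irgm1 (chr11:48871420-48871465, minus strand): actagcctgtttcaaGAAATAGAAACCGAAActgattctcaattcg
Igtp (chr11:58199496-58199546, plus strand): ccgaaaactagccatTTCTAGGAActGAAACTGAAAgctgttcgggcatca
Irgm2 (chr11:58214887-58214937, plus strand): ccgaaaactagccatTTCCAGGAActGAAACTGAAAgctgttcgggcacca
Tgtp1 (chr11:48992299-48992349, minus strand): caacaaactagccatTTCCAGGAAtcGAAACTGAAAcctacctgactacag

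The core of the interferon-stimulated response element, GAAANNGAAA on either strand, was found in 8 of the 9 windows and in all 8 genes that had one. Of all 32851 windows in the table, 3.44% held it. The gamma-activated site, TTCNNNGAA, which reads the same on both strands, was found in windows of 5 genes (Gbp5, Gbp7, Igtp, Irgm2 and Tgtp1) against 8.3% of all windows. Both motifs together were found in these 5 windows and in 0.454% of all windows. A longer form of the response element, GAAANNGAAACT, which overlaps the core, was in 5 of the 9 windows and in 0.271% of all. In the Gbp5 window (chr3:142496684-142496983, plus strand, not printed here) the core began 165 bases before the start and the gamma-activated sites 245 and 52 bases before it.

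Igtp, Irgm2 and Tgtp1 shared an arrangement in which the gamma-activated site was followed after 2 bases by the response element core. This pattern was chosen after the windows were seen. It occurred in 5 of the 32851 windows (0.0152%), and the other 2 were those of Tgtp2 and Gm12185, whose names stand on the Tgtp1 locus. The printed stretches of Igtp and Irgm2 were identical at 49 of 51 bases, and those of Irgm2 and Tgtp1 at 36 of 51. For comparison, of the 21 windows of type I interferon genes, 11 held the core and 3 the gamma-activated site. These matches are descriptions of sequence, and binding was not measured.

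Reads could not always be assigned to 1 gene of the families. Only Gbp3, Gbp5, Iigp1 and Irgm1 had a locus with no other gene name. The Gbp2 locus (GRCm38 chr3:142594847-142638008, plus strand) also covered Gbp2b, the Gbp6 locus (chr5:105214907-105293698, minus strand) Gbp10 and the predicted gene Gm43302, and the Gbp7 locus (chr3:142529778-142550140, plus strand) the predicted gene Gm43802. Igtp and Irgm2 shared chr11:58199556-58222779 (plus strand). The Tgtp1 locus (chr11:48887354-49064206, minus strand) was 176.853 kb long and carried 7 gene names, among them its near copy Tgtp2. Values of these loci are those of the locus, not of 1 gene. Gbp3 (chr3:142560026-142573209) and Gbp5 (chr3:142493978-142522344) lie in the GBP cluster of chromosome 3, Irgm1 (chr11:48861968-48871683) beside Tgtp1 on chromosome 11, and Iigp1 (chr18:60376027-60392634) on chromosome 18. All 10 genes are annotated as protein coding.

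Grouped by title, the GTPases were lower in NPRC-/-ApoE-/- aortas, with log2 fold changes between -0.47 (Tgtp1) and -1.38 (Iigp1) and a median of -0.72, against a median of -0.01 over all 20506 tested loci. All 9 loci passed the filter of at least 1 FPKM in at least 3 libraries. The criterion of the study (fold change over 2, or less than 0.5, and p under 0.05 before adjustment) was met by 2 loci, Iigp1 and Gbp6, and both were lower. Of these, Gbp6 passed the filter only through libraries titled ApoE-/-. Among all tested loci 2.39% were lower by this criterion and 1.08% were higher. All 9 log2 fold changes were below 0, against 50.9% of all loci, and 8 of the 9 loci had an unadjusted p-value under 0.05 and a lower level, against 7.13% of all loci. Leaving out 1 library gave 5 (without NPRC-/-ApoE-/- 3) to 9 (without NPRC-/-ApoE-/- 1) such loci. None passed after Benjamini-Hochberg adjustment (adjusted p between 0.216 and 0.504, edgeR), as was true of all 20506 loci (0.0%). Before adjustment 13.6% of all loci were under 0.05 in either direction. With DESeq2, 4 of the 9 loci had an adjusted p-value under 0.05 (Gbp3, Gbp5, Gbp6 and Iigp1), against 3.17% of all loci, and with limma and array quality weights 5 did, against 5.7%. The weights were estimated from these data and ran from 0.504 (NPRC-/-ApoE-/- 1) to 2.35 (NPRC-/-ApoE-/- 2), so NPRC-/-ApoE-/- 1 counted least. With limma, 1 locus (Iigp1) was lower by the criterion on log2(FPKM + 1), against 0.668% of all loci, on log2(FPKM + 0.1), against 2.41%, and with array quality weights, against 1.82%. Without NPRC-/-ApoE-/- 1 the number lower by the criterion was 4, and without ApoE-/- 2, NPRC-/-ApoE-/- 2 or NPRC-/-ApoE-/- 3 it was 1. For all fits with 1 library left out, the shares of all loci were not counted. A shift in these counts therefore cannot be told from a shift of the whole table. In whole aorta, fewer cells of a type and less RNA per cell cannot be told apart.

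**Figure D1:**
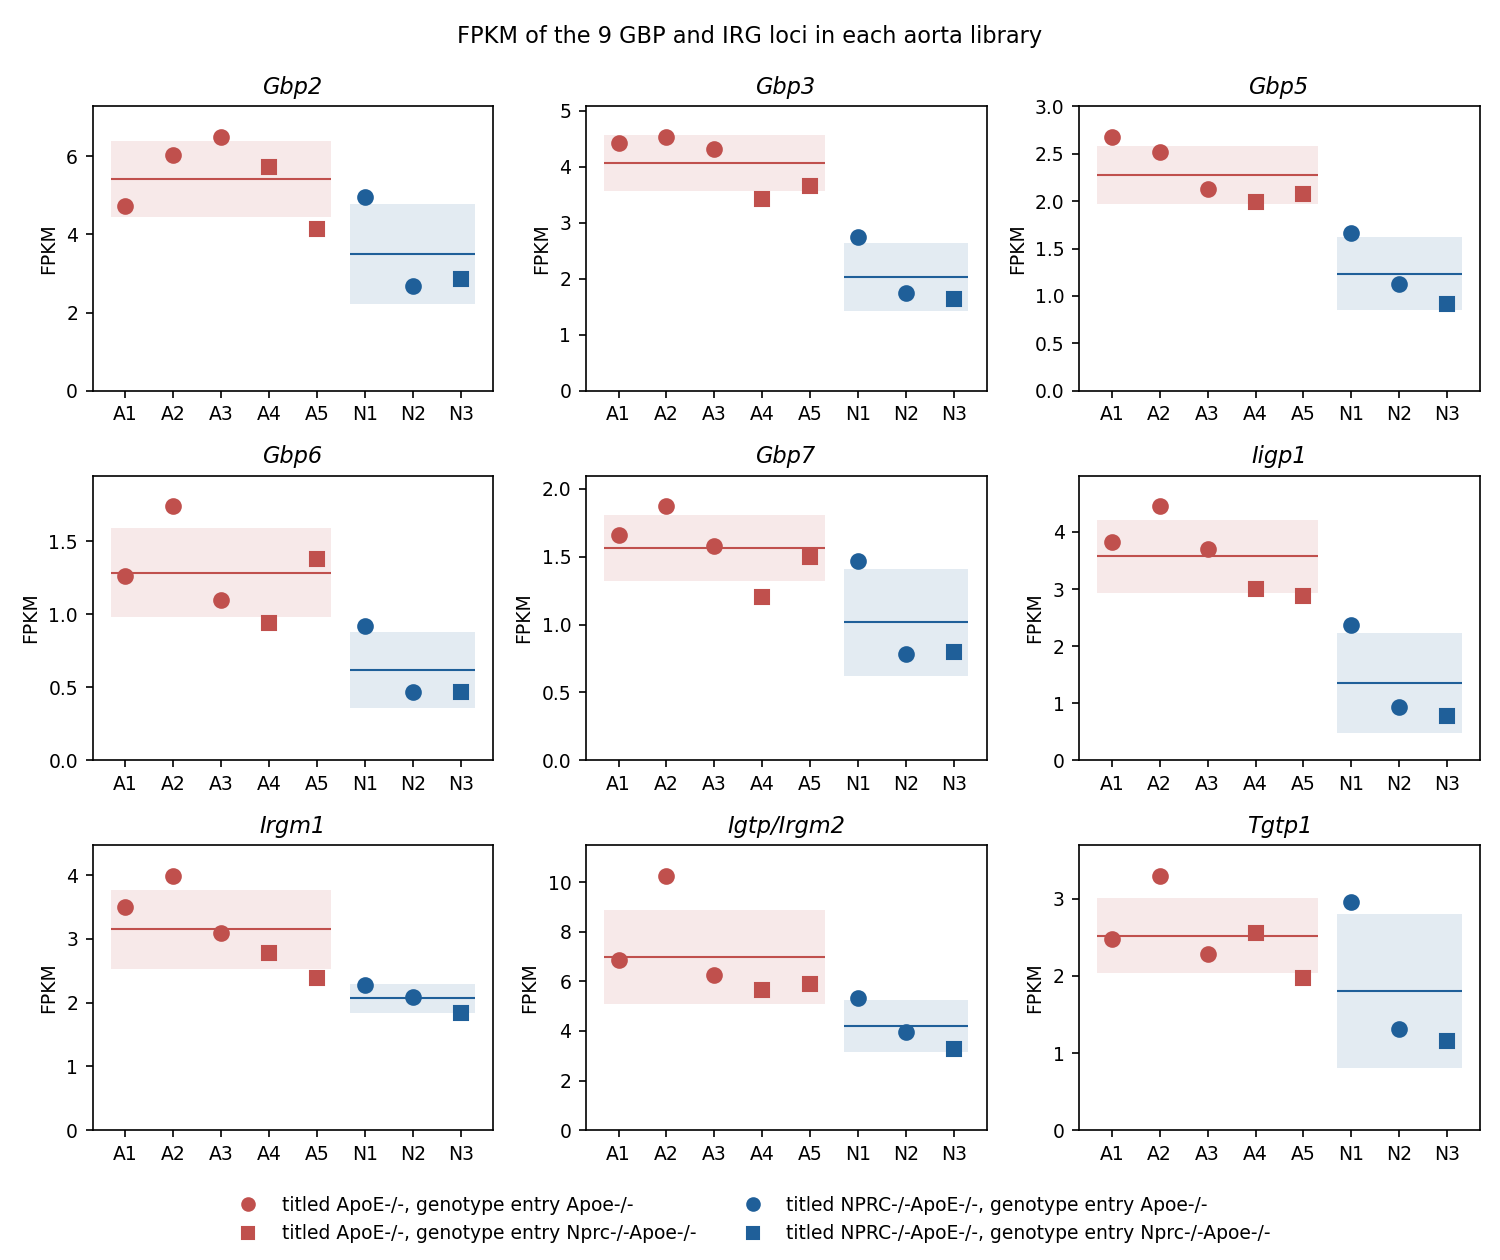
FPKM (vertical axes, linear from 0) of the 9 GBP and IRG loci in each library, with A1 to A5 for titles ApoE-/- 1 to 5 and N1 to N3 for titles NPRC-/-ApoE-/- 1 to 3. Colour gives the title, point shape the genotype entry, lines the group mean by title and bands ± 1 SD; in all 9 panels N2 and N3 are the lowest libraries, and N1 lies among the libraries titled ApoE-/- for Gbp2, Gbp7 and Tgtp1.

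Gbp3, a member of the chromosome 3 cluster with a locus of its own, was one of the most evenly separated. Its level was 4.42, 4.54, 4.31, 3.43 and 3.65 FPKM in ApoE-/- 1 to 5, and 2.74, 1.74 and 1.64 FPKM in NPRC-/-ApoE-/- 1 to 3. Every library titled NPRC-/-ApoE-/- lay below every library titled ApoE-/-. The log2 fold change was -0.98 ± 0.20 (SE; edgeR, unadjusted p = 0.000891, adjusted p = 0.216), or 50.8% of the ApoE-/- level, which is just short of the fold change of the criterion.

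Gbp5 promotes the assembly of the NLRP3 inflammasome in macrophages. It was measured at 2.68, 2.52, 2.13, 1.99 and 2.07 FPKM in ApoE-/- 1 to 5 against 1.66, 1.13 and 0.92 FPKM in NPRC-/-ApoE-/- 1 to 3. The groups did not overlap, and NPRC-/-ApoE-/- 1 was the nearest to the other group. Its log2 fold change was -0.86 ± 0.20 (SE; edgeR, unadjusted p = 0.00182, adjusted p = 0.232).

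Gbp6, on a chromosome 5 cluster, had 1.26, 1.74, 1.10, 0.94 and 1.38 FPKM in ApoE-/- 1 to 5 and 0.92, 0.47 and 0.47 FPKM in NPRC-/-ApoE-/- 1 to 3. The gap between the groups was narrow, 0.94 against 0.92 FPKM. This locus passed the filter only through 4 libraries titled ApoE-/-, since no library titled NPRC-/-ApoE-/- reached 1 FPKM, so a lower level in the latter was partly set by the filter. The log2 fold change was -1.03 ± 0.27 (SE; edgeR, unadjusted p = 0.00389, adjusted p = 0.255). It no longer met the criterion without ApoE-/- 2 (-0.90), NPRC-/-ApoE-/- 2 (-0.84) or NPRC-/-ApoE-/- 3 (-0.88).

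Gbp2 and Gbp7 overlapped between the groups. For Gbp2, which gathers on the vacuoles of intracellular pathogens, FPKM were 4.72, 6.03, 6.50, 5.73 and 4.13 in ApoE-/- 1 to 5 and 4.96, 2.67 and 2.87 in NPRC-/-ApoE-/- 1 to 3. For Gbp7 they were 1.66, 1.87, 1.58, 1.20 and 1.5 against 1.47, 0.78 and 0.80. In both, NPRC-/-ApoE-/- 1 lay above 2 of the libraries titled ApoE-/- on the scale of log2 CPM. The log2 fold changes were -0.63 ± 0.26 for Gbp2 (adjusted p = 0.338, edgeR) and -0.60 ± 0.23 for Gbp7 (adjusted p = 0.328). Without NPRC-/-ApoE-/- 1 they were -0.94 and -0.93, without NPRC-/-ApoE-/- 2 they were -0.44 and -0.41, and without ApoE-/- 2 or 3 or NPRC-/-ApoE-/- 2 or 3 both had an unadjusted p-value above 0.05. Over the 5 GBP loci the median log2 fold change was -0.86.

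Iigp1 (also named Irga6), an effector IRG that coats and disrupts the vacuoles of pathogens, had the lowest log2 fold change of the 9 loci. Its levels were 3.83, 4.45, 3.70, 3.00 and 2.87 FPKM in ApoE-/- 1 to 5 and 2.37, 0.94 and 0.78 FPKM in NPRC-/-ApoE-/- 1 to 3. All of the latter were below all of the former. The fitted level in NPRC-/-ApoE-/- aortas was 38.3% of that in ApoE-/- aortas, a log2 fold change of -1.38 ± 0.35 (SE; edgeR, unadjusted p = 0.00363, adjusted p = 0.255). Leaving out NPRC-/-ApoE-/- 1 gave -2.02 (adjusted p = 0.0486, edgeR), leaving out NPRC-/-ApoE-/- 2 gave -1.15 (adjusted p = 0.755) and leaving out NPRC-/-ApoE-/- 3 gave -1.11 (adjusted p = 0.735).

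Tgtp1 (T-cell-specific GTPase, also named Irgb6), the other effector, showed the smallest difference. FPKM of its 7-gene locus were 2.48, 3.30, 2.29, 2.56 and 1.98 in ApoE-/- 1 to 5, and 2.96, 1.31 and 1.15 in NPRC-/-ApoE-/- 1 to 3. NPRC-/-ApoE-/- 1 exceeded 4 of the 5 libraries titled ApoE-/-. The log2 fold change was -0.47 ± 0.30 (SE; edgeR, unadjusted p = 0.153, adjusted p = 0.504), and it was -0.995 without NPRC-/-ApoE-/- 1 (adjusted p = 0.0724), -0.27 without NPRC-/-ApoE-/- 2 (adjusted p = 0.891) and -0.24 without NPRC-/-ApoE-/- 3 (adjusted p = 0.867).

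The regulatory genes Irgm1, Irgm2 and Igtp (also named Irgm3) sat between these. Irgm1, which is also tied to autophagy, had 3.50, 3.99, 3.10, 2.78 and 2.38 FPKM in ApoE-/- 1 to 5 and 2.28, 2.09 and 1.83 FPKM in NPRC-/-ApoE-/- 1 to 3. The groups stood apart on FPKM and touched on log2 CPM, where NPRC-/-ApoE-/- 1 (4.53) equalled ApoE-/- 5 (4.53) at the printed precision. Its log2 fold change was -0.59 ± 0.18 (SE; edgeR, unadjusted p = 0.00969, adjusted p = 0.284). The joint Igtp and Irgm2 locus had FPKM of 6.85, 10.26, 6.27, 5.66 and 5.88 in ApoE-/- 1 to 5 and 5.32, 3.97 and 3.27 in NPRC-/-ApoE-/- 1 to 3. These groups did not overlap, and the log2 fold change was -0.72 ± 0.22 (SE; edgeR, unadjusted p = 0.0107, adjusted p = 0.285). Over the 4 IRG loci the median log2 fold change was -0.65.

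In total 5 of the 9 loci (Gbp3, Gbp5, Gbp6, Iigp1 and the Igtp and Irgm2 locus) had lower log2 CPM in every library titled NPRC-/-ApoE-/- than in any titled ApoE-/-, against 3.69% of all tested loci. Of the 5, Gbp6 passed the filter only through libraries titled ApoE-/-, so its lower level was partly set by the filter. None of the 9 was higher in every library titled NPRC-/-ApoE-/-, against 3.72% of all. Grouped by genotype entry, none of the 9 was lower without overlap (0.566% of all loci).

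**Figure D2:**
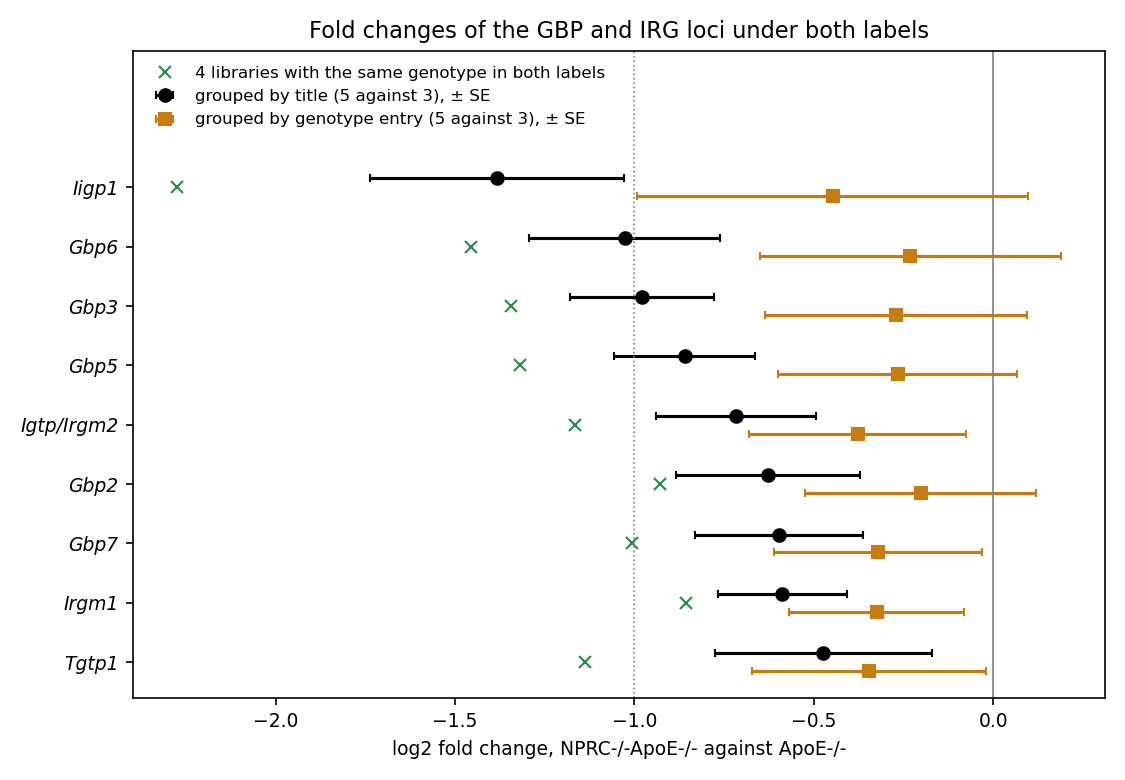
Log2 fold change of NPRC-/-ApoE-/- against ApoE-/- (horizontal axis) for the 9 loci (vertical axis) under the title (black circles, 5 against 3, ± SE), the genotype entry (orange squares, 5 against 3, ± SE) and the 4 libraries with the same genotype in both labels (green crosses, 3 against 1, no error). The dotted line marks a log2 fold change of -1; all points lie below 0, those by genotype entry nearest to it.

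The groupings by title and by genotype entry place 4 of the 8 libraries alike, so their values are not independent. Grouped by genotype entry, the log2 fold changes of the 9 loci were between -0.45 (Iigp1) and -0.20 (Gbp2), with a median of -0.32 against 0.00 over all loci. None of the 9 met the criterion, which 0.263% of all loci met in the lower direction, and none had an unadjusted p-value under 0.05 in either direction (lowest 0.218, edgeR; adjusted p = 1 for each), against 1.31% of all loci (0.697% with a lower level). Log2 fold changes below 0 were found at all 9 loci, against 51.0% of all loci. Iigp1, for instance, was 0.94 to 4.45 FPKM in the 5 libraries entered as Apoe-/- and 0.78 to 3.00 FPKM in the 3 entered as Nprc-/-Apoe-/-. In the 4 libraries with the same genotype in both labels, the single NPRC-/-ApoE-/- library was lower at all 9 loci, with log2 differences between -0.86 (Irgm1) and -2.27 (Iigp1). With 1 library on one side this comparison has no replicate check and no test.

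**Figure D3:**
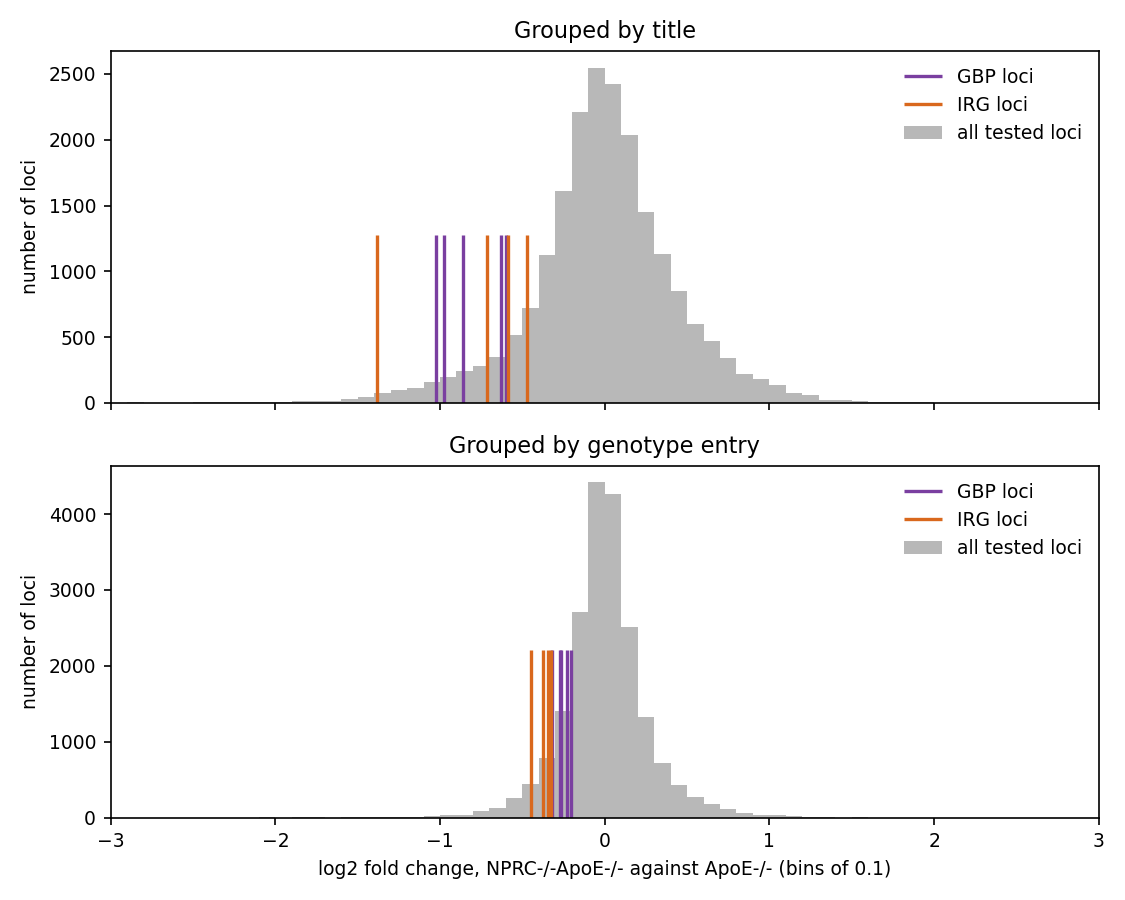
Histograms of the log2 fold change of all 20506 tested loci (grey, horizontal axis in bins of 0.1, vertical axis number of loci) by title (top) and by genotype entry (bottom), with vertical lines for the 5 GBP loci (purple) and the 4 IRG loci (orange); line height has no meaning, and loci beyond 3 on either side are not drawn. The GTPase lines lie between -1.38 and -0.47 by title and between -0.45 and -0.20 by genotype entry.

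The libraries differed among themselves in a pattern that most of the 9 loci shared. The mean log2 CPM of the loci was 4.87, 5.15, 4.96, 4.75 and 4.58 in ApoE-/- 1 to 5 and 4.54, 3.77 and 3.73 in NPRC-/-ApoE-/- 1 to 3. NPRC-/-ApoE-/- 2 and 3 were the lowest pair at 9 of 9 loci, although their genotype entries differed. The share of all loci with this lowest pair was not counted. These libraries were also lowest in the means of the interferon-γ targets, type I interferon genes, interferon-γ signalling, macrophage and fibroblast lists. In the means of the endothelial, smooth muscle and adipocyte lists they were not the lowest pair. ApoE-/- 2 was highest at 6 loci. NPRC-/-ApoE-/- 1 was close to ApoE-/- 5, and exceeded the mean of the other two libraries of its title by 0.16 (Irgm1) to 1.41 (Iigp1) on the log2 scale, while the latter differed from each other by 0.01 to 0.21. Reads on the 9 loci made up 0.0148% of the library in NPRC-/-ApoE-/- 3 and 0.0414% in ApoE-/- 2, the lowest and the highest share.

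Between loci, Pearson's r of log2 CPM over the 8 libraries was 0.755 (Irgm1 and Tgtp1) to 0.986 (Gbp3 and Iigp1), with a median of 0.884 over 36 pairs. All pairs share the same libraries and their makeup of cells, and members of a cluster share chromosome position, so these values are descriptions.

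The 5 loci with 1 gene name whose log2 CPM followed the mean of the GTPases most closely over the 8 libraries were Psmb9 (r = 0.996), Arhgap15 (0.994), Nid2 (0.994), Ciita (0.990) and Gm12250 (0.989). Psmb9, a subunit of the immunoproteasome, had 1.59 to 3.41 FPKM by title in ApoE-/- and 0.47 to 1.29 FPKM in NPRC-/-ApoE-/-. Ciita, the master regulator of MHC class II genes, had 1.78 to 3.63 against 0.63 to 1.76 FPKM. Nid2, a basement membrane protein, had 3.86 to 5.65 against 1.92 to 3.49 FPKM, and Arhgap15, a GTPase-activating protein for Rac, 0.84 to 1.6 against 0.31 to 0.94 FPKM. Arhgap15 passed the filter only through libraries titled ApoE-/-. These loci were picked for following the GTPases in the same libraries, so their lower levels by title came with the choice. In all, 89 of 18474 loci had an r above 0.95 with the GTPase mean.

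Upstream of the GTPases, the ligand itself was barely detected. Ifng was at 0 to 0.09 FPKM by title in ApoE-/- and at 0.01 to 0.03 FPKM in NPRC-/-ApoE-/-, below the filter, and was not tested. Its locus had 0 to 11 counts per library. Of the 14 genes that induce interferon-γ, 3 were tested and none met the criterion. Il12a (0 to 0.09 FPKM) and Il12b (0 to 0.26 FPKM), the subunits of interleukin-12, were not tested.

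Of the 18 genes of interferon-γ signalling, 15 were tested, 3 were lower by the criterion (2.39% of all loci) and none was higher. The 3 were Irf8, a transcription factor of myeloid cells (log2 fold change -1.45 ± 0.40), Ciita (-1.35 ± 0.37) and the phosphatase gene Ptpn6 (-1.02 ± 0.40). Of the 15, 14 had a negative log2 fold change, with a median of -0.40. By genotype entry none met the criterion, 12 were negative and the median was -0.14. Of the receptor chains, Ifngr1 had 4.45 to 6.46 FPKM by title in ApoE-/- and 3.32 to 3.65 FPKM in NPRC-/-ApoE-/- without overlap (-0.67 ± 0.16, adjusted p = 0.253, edgeR), and Ifngr2 had 10.57 to 16.45 against 9.81 to 15.94 FPKM (-0.18 ± 0.22, adjusted p = 0.742). By genotype entry the log2 fold change of Ifngr1 was -0.05. Of the 15 loci, 3 were lower without overlap by title, against 3.69% of all loci. Irf1 had 4.22 to 7.77 against 4.14 to 4.93 FPKM (-0.40 ± 0.18, adjusted p = 0.378, edgeR).

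Other genes of the GBP and IRG families and their relatives had 7 tested loci besides the 9, of which 2 were lower by the criterion (2.39% of all loci). These were Ifi47 and Gm12250, each with a log2 fold change of -1.10. Gm12250 passed the filter only through libraries titled ApoE-/-. By genotype entry none of the 7 met the criterion, and the median was -0.40 against -0.59 by title. The locus that joins Gbp4, Gbp8 and Gbp9 had -0.59 ± 0.27 (adjusted p = 0.369, edgeR). Irgq (-0.05 ± 0.12) and the atlastin genes Atl2 (0.42 ± 0.26) and Atl3 (0.01 ± 0.35), GTPases of the endoplasmic reticulum that are relatives of the GBPs, had log2 fold changes above those of all 9 loci.

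Of 24 other target genes of interferon-γ, 19 loci were tested by title, 9 were lower by the criterion (2.39% of all loci), none was higher, and the median log2 fold change was -1.03. Of the 9, Aif1 passed the filter only through libraries titled ApoE-/-. By genotype entry none met the criterion, 16 of the 19 were negative and the median was -0.38. Cd74, the invariant chain of MHC class II, had 126.67 to 241.12 FPKM by title in ApoE-/- and 29.56 to 85.08 FPKM in NPRC-/-ApoE-/- (-1.87 ± 0.40, adjusted p = 0.222, edgeR). B2m, the light chain of MHC class I, had 156.69 to 189.96 against 89.30 to 117.06 FPKM (-0.77 ± 0.14, adjusted p = 0.191). Psmb9 had -1.48 ± 0.38 and the proteasome activator Psme1 -0.81 ± 0.21. The chemokine Cxcl9, which attracts T cells, was below the filter at 0.35 to 1.21 against 0.06 to 0.36 FPKM.

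Of 20 tested loci of genes best known as targets of type I interferons, 9 were lower by the criterion by title (2.39% of all loci) and none was higher. All 20 had a negative log2 fold change, and the median was -0.93. Of the 9, 5 passed the filter only through libraries titled ApoE-/- (Ifit1, Isg15, Rsad2, Zbp1 and the locus of Oas2 and Oas3), so their lower level was partly set by the filter. By genotype entry none met the criterion, all 20 were negative and the median was -0.37. Ifih1, a sensor of double-stranded RNA, had 2.10 to 3.08 FPKM by title in ApoE-/- and 1.07 to 1.54 FPKM in NPRC-/-ApoE-/- (-1.02 ± 0.18, adjusted p = 0.189, edgeR). Ifit1 (-1.53 ± 0.31), Oasl2 (-1.19 ± 0.25) and Rsad2 (-1.17 ± 0.25), which act against viral RNA and replication, were lower without overlap as well. In all, 12 of the 20 loci were lower without overlap by title, against 3.69% of all loci, some having passed the filter as just described. Library NPRC-/-ApoE-/- 1 was below all libraries titled ApoE-/- in the mean of the type I genes (-0.36 from their mean over the 8 libraries, against -0.16 in ApoE-/- 5), whereas in the mean of the interferon-γ targets it was above ApoE-/- 5 (0.00 against -0.23).

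Among partners of the GTPases, none of the 15 genes of autophagy with which IRG and GBP proteins work met the criterion or had an unadjusted p-value under 0.05 (edgeR), and their median log2 fold change was -0.16. The 2 with the smallest p-values were Atg5, needed to load GTPases onto vacuoles (-0.45 ± 0.20, adjusted p = 0.375), and Atg12 (-0.23 ± 0.14, adjusted p = 0.481). Of 6 tested genes of the inflammasomes that GBPs act on, 2 were lower by the criterion (2.39% of all loci). They were Il1b (-2.25 ± 0.84) and the DNA sensor Aim2 (-1.08 ± 0.42), the latter having passed the filter only through libraries titled ApoE-/-. By genotype entry none of the 6 met the criterion and the median was -0.27, against -0.73 by title. Casp1 (-0.86 ± 0.27) and Casp4 (-0.58 ± 0.20), the caspases of the canonical and the noncanonical pathway, did not reach the fold change of the criterion. No gene of these lists had an adjusted p-value under 0.05.

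**Figure D4:**
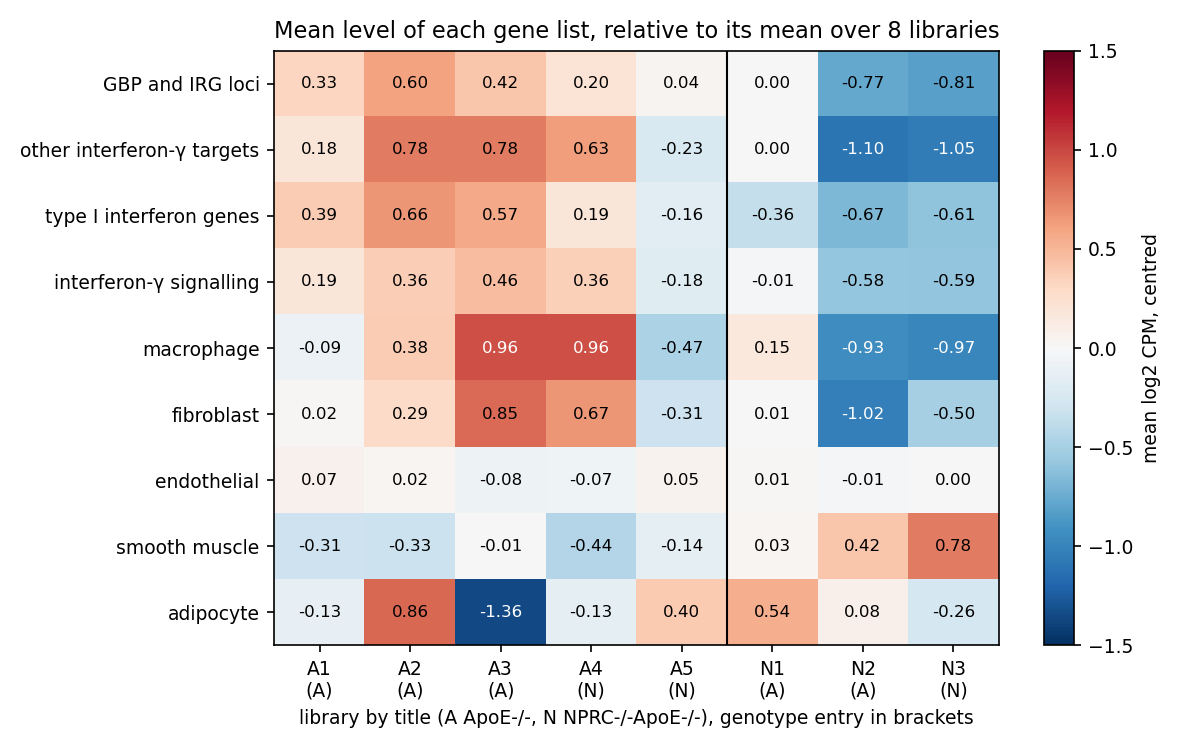
Mean log2 CPM of the tested loci of each gene list (rows) in each library (columns, title above and genotype entry in brackets, A for ApoE-/- and N for NPRC-/-ApoE-/-), as the difference from the mean of the list over the 8 libraries; red is higher and blue lower. The GTPase row runs from 0.60 in A2 to -0.81 in N3, the macrophage row from 0.96 in A3 and A4 to -0.97 in N3, and the endothelial row stays between -0.08 and 0.07.

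Markers of cell types were summed in each library. The 10 macrophage markers together held 1730 to 4879 CPM in the libraries titled ApoE-/- and 1196 to 2565 CPM in those titled NPRC-/-ApoE-/-. The Cd68 locus carried 8 gene names, among them Eif4a1, the Itgam locus 3 and the Mertk locus 2. The sums and means of this list are therefore not of the markers alone. By the criterion 3 of the 10 were lower (C1qa -1.37 ± 0.43, C1qb -1.45 ± 0.57 and Fcgr3 -1.11 ± 0.46), against 2.39% of all loci. All 10 had a negative log2 fold change, with a median of -1.03 by title and -0.16 by genotype entry. The macrophage sum was higher in NPRC-/-ApoE-/- 1 (2565 CPM) than in ApoE-/- 1 (2240 CPM) and ApoE-/- 5 (1730 CPM). The sum of the GTPases in NPRC-/-ApoE-/- 1 (297 CPM) lay between ApoE-/- 1 (320 CPM) and ApoE-/- 5 (258 CPM). In mean log2 CPM, the macrophage markers had 7.19 in NPRC-/-ApoE-/- 1, against 6.94 in ApoE-/- 1 and 6.56 in ApoE-/- 5. The GTPases had 4.54 in NPRC-/-ApoE-/- 1, against 4.87 in ApoE-/- 1 and 4.58 in ApoE-/- 5.

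The 10 T cell markers together held 22.9 to 46.8 CPM in the libraries titled ApoE-/- and 14.9 to 34.4 CPM in the others. Of the 2 tested, Cd4 was lower by the criterion by title (-1.56 ± 0.33, adjusted p = 0.222, edgeR), against 2.39% of all loci. By genotype entry Cd4 had a log2 fold change of 0.28 ± 0.57 (adjusted p = 1). The 8 natural killer cell markers held 10.8 to 15 against 5.56 to 6.60 CPM. Only 1 of them was tested, Nkg7, which was lower by the criterion by title (-1.48 ± 0.60), against 2.39% of all loci. Its log2 fold change by genotype entry was -0.39. The markers were split. By median FPKM, Gzma (0.29 against 0.99), Gzmb (0.52 against 0.77) and Prf1 (0.33 against 0.44) were higher under the title NPRC-/-ApoE-/-, and the rest were lower. For B cells the sums were 3.31 to 65.6 against 1.69 to 11.4 CPM, for neutrophils 1.21 to 10.3 against 1.72 to 8.97 CPM, and for dendritic cells 53.3 to 67.1 against 50.2 to 62.2 CPM. No tested B cell (1) or neutrophil (3) marker met the criterion. Most counts of the dendritic list were of Zbtb46 (0.07 ± 0.12). The other tested dendritic marker, Ccr7, was lower by the criterion (-1.58 ± 0.63), against 2.39% of all loci, and had -0.59 by genotype entry. By median FPKM Zbtb46 was 2.52 against 2.59, and the other dendritic markers were lower under the title NPRC-/-ApoE-/-. No marker of these lists was at 0 in all libraries.

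Of the cells of the vessel wall, the 8 endothelial markers overlapped in sum (1266 to 1502 against 1313 to 1373 CPM), with a median log2 fold change of -0.07. Smooth muscle markers held 5843 to 7747 CPM in the libraries titled ApoE-/- and 7475 to 14063 CPM in the others, with a median log2 fold change of 0.64. None was past the criterion, and 7 of 8 were higher with an unadjusted p-value under 0.05 (edgeR), against 1335 of all 20506 loci. Fibroblast markers held 5325 to 16419 against 3118 to 8494 CPM (median -0.86), adipocyte markers 305 to 1382 against 760 to 1240 CPM (median 0.04), and striated muscle markers 3.33 to 47.4 against 29.1 to 43.6 CPM (median 0.99, over 4 tested genes). By genotype entry the medians were 0.17 for smooth muscle, -0.09 for fibroblast, -0.11 for adipocyte and -0.14 for striated muscle markers. The part of these marker levels in the levels of the GTPases was not tested.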

How the data were processed

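Counts and FPKM of 48607 loci in 8 whole-aorta libraries were used. The authors trimmed reads with cutadapt 1.9, checked them with FastQC (processing notes, which name GRCm38), mapped with HISAT2 and assembled with StringTie, and deposited whole-number counts per assembled locus without normalization. The authors also deposited FPKM values, scaled to length and mapped fragments. The counting tool, the annotation release and the use of strand in counting are not given in the sources used here. Overlapping and near-identical genes can share reads.

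Of the loci, 20506 reached 1 FPKM in 3 or more libraries and entered edgeR 4.0.16 (R 4.3.3; TMM, quasi-likelihood test, Benjamini-Hochberg), which was tested on simulated data. The SE given with edgeR values is the absolute log2 fold change divided by the square root of the F statistic of the test. Log2 CPM used a prior count of 2. Alternatives used limma 3.58.1 on log2(FPKM + 1) or log2(FPKM + 0.1) and DESeq2 1.42.0. Depth was 62969165 to 86693276 counts. Precision is set by the few libraries (biological coefficient of variation 0.327). Titles number the libraries but do not state which animal each came from, so p-values measure the spread between libraries. Gene coordinates are from GENCODE M21 (GRCm38), locus coordinates from the table. Implied FPKM lengths (3.931 kb for Gbp3 to 45.098 kb for Tgtp1) exceeded the annotated exons of the loci (3.265 to 28.077 kb), so FPKM are comparable between libraries rather than between genes.

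The GTPases and the other gene lists were chosen with earlier results of these data known. Named genes were the 10 GTPases, Npr3, Ifng, Ifngr1, Ifngr2, Irf1, from each list those its counts need and up to 4 with the smallest p-values, and the 5 loci most correlated with the GTPases. Il12a, Il12b, Irgq, Atl2, Atl3, Cxcl9, Aif1, Isg15, Zbp1, Oas2, Oas3, Gzma, Gzmb and Prf1 were named after their values were seen. Cd68, Eif4a1, Itgam and Mertk were named for the gene names on their loci. A further gene of the rule is not reported here. No column lacked a sample.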

Additional observations from a re-analysis of the deposited data

Results flagged for a closer look

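Of the 20 groups of 5 libraries looked at for a library far from the others, 1 had such a library, which is the number that chance gives (1 in 20). Among the libraries entered as Apoe-/-, Gbp7 was at 2.91 log2 CPM in NPRC-/-ApoE-/- 2, where the nearest of the other libraries had 3.80, a gap of 0.738 of the whole range of the group. The title of this library contradicts its genotype entry, and NPRC-/-ApoE-/- 3, with the same title, was at a like level of 0.80 FPKM against 0.78 FPKM. Groups of 3 were too small for this comparison.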

How the results depend on the processing

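All 9 loci kept a log2 fold change below 0 under each of the 18 alternatives run, and none was higher by the criterion. The number lower by the criterion was 2 by title with edgeR, 0 by genotype entry, 1 with limma on log2(FPKM + 1), on log2(FPKM + 0.1) and with array quality weights, and between 1 and 4 with a library left out (4 without NPRC-/-ApoE-/- 1, and 1 without ApoE-/- 2, NPRC-/-ApoE-/- 2 or NPRC-/-ApoE-/- 3). After adjustment, 0 loci were under 0.05 with edgeR, 4 with DESeq2, 5 with limma and array quality weights (Gbp2, Gbp3, Gbp5, Gbp6 and Iigp1), and 0 to 1 with a library left out (1 without NPRC-/-ApoE-/- 1). The median log2 fold change was -0.72, -0.32 by genotype entry, -1.17 in the 4 libraries with the same genotype in both labels, and between -0.995 and -0.58 with a library left out. The shares of all loci with a library left out were not counted, and the cause of these shifts was not tested. Each GTPase name stood on 1 locus, so summing loci by name gave no separate value.

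With the replicate number as a block in the 6 libraries numbered 1 to 3, 3 loci were lower by the criterion, Gbp3 with them (-1.13 on the log2 scale), and the median was -0.87, against 3 loci and -0.87 in the same libraries without the block (2.6% and 2.86% of all loci). Deviations of libraries with the same number had correlations between -0.31 and 0.01 (mean -0.14), against a mean of 0.07 for libraries with different numbers. With so few libraries per group these values cannot decide whether the numbers pair the libraries. The conflict of the labels, the 3 libraries titled NPRC-/-ApoE-/- and 5 loci with more than 1 gene name limit these results. Alternatives other than the genotype entry and the 4 libraries were run by title only. Counts of 0 to 11 per library limit Ifng.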
